A study of Mus musculus with 30 samples.

Results

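The genes described here are 10 of the 25400 genes in the count table, chosen by name: *Rest*, which encodes the repressor of neuronal genes REST, and 9 regulators of alternative splicing. Of these, *Ptbp2*, *Srrm4*, *Nova1*, *Nova2* and *Rbfox1* are used by neurons, *Ptbp1* and *Rbfox2* are widely expressed, and *Esrp1* and *Esrp2* are epithelial. All 10 passed the filter on low counts, as did 16582 genes of the table in all. Their transcripts were measured by poly(A) RNA-seq after 8 days of differentiation of mouse embryonic stem cells (ESCs, line HA36CB1, 129×C57BL/6) into neural progenitor cells (NPCs), with 24 libraries from 8 lines, 3 per line.

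They comprised wild type (WT), *Mbd3* knock-out (*Mbd3* KO), and *Mbd3* KO lines carrying a biotin-tagged construct at a fixed recombination site, transcribed from the CAG promoter, which is active in most cell types. MBD3 and MBD2 are alternative subunits of the NuRD complex, a chromatin remodeler with deacetylase activity. The constructs were MBD3a, MBD3ΔMBD (Mbd3a_delMBD in the labels, without the methyl-CpG-binding domain), MBD2a, MBD2aΔGR (Mbd2a_delGR, without the glycine-arginine stretch), MBD2aR181C (Mbd2a_R181C, a point mutant of the methyl-CpG-binding domain) and MBD2t, a truncated MBD2 isoform. Endogenous *Mbd2* was intact in all 8 lines. Each library came from its own clone, with the exception of MBD2t, for which 1 clone gave all 3 libraries and the spread holds no difference between clones. Libraries held 27993858 to 49392806 counted reads, and 3 reads correspond to 0.0607 to 0.107 CPM (counts of a gene scaled to the total of its library).

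*Mbd3* reads lay at 149 to 157 CPM in WT and at 34.3 to 73.8 CPM in *Mbd3* KO, so transcript from the targeted gene was reduced but still counted. *Mbd2* reads, which would include those of a mouse *Mbd2* coding sequence in a construct, were at 64.3 to 70.9 CPM in *Mbd3* KO, 67.0 to 87.2 CPM in MBD2a, 280 to 700 CPM in MBD2aΔGR, 253 to 326 CPM in MBD2aR181C and 335 to 356 CPM in MBD2t. The log2 difference of MBD2a from *Mbd3* KO in *Mbd2* reads, 0.26 ± 0.21, did not pass the test (adjusted p = 0.508), and the part of this in the results below was not tested. By immunoblot of ESCs, the paper reports MBD2a protein at the level of MBD2aΔGR. In *Mbd3* KO against WT, all 11 measured neural progenitor markers and all 10 neuron markers fell, and all 10 pluripotency markers and all 8 trophoblast markers rose. Of the primitive and visceral endoderm markers, 1 of 8 rose, and of the mesenchyme and smooth muscle markers 1 of 6 rose and 2 fell. Of all tested genes 19.6% rose and 14.2% fell, so the rises in these last lists do not exceed the share of all genes. The label of neural progenitor therefore does not describe the marker levels of the *Mbd3* KO, MBD2a and MBD2t libraries, whose summed neural progenitor markers lay at 165 to 365 CPM against 1382 to 1727 CPM in WT. In such bulk RNA, fewer cells of a type and less RNA per cell cannot be told apart.

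REST is a zinc finger protein that binds the RE1 element near neuronal genes and recruits corepressors (RCOR1, SIN3A, histone deacetylases and demethylases), keeping these genes off in stem cells and non-neuronal tissues. As neural progenitors mature, splicing is handed over from PTBP1, which blocks neuronal exons, among them an exon that *Ptbp2* needs for a stable transcript, to PTBP2 and then to factors such as NOVA, RBFOX and SRRM4, the last of which drives the inclusion of microexons. SRRM4 also acts on *Rest* pre-mRNA, and *Srrm4* is itself a known REST target. ESRP1 and ESRP2 set the epithelial pattern of splicing and are lost when ZEB factors turn cells towards a mesenchymal or neural fate. Only transcript levels per gene were measured here, not exon use.

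Because REST reads DNA through a defined element, the letters of its conserved core were searched for on both strands of the mouse genome build of the counts (NCBIM37, mm9). The core was spelled as CAGCACC, any 2 bases and GGACAG, and was found at 623 places. No member had it within 10000 bases of its start, as against 231 of the 25400 genes of the table (0.909%), 4 of 15 other neural splicing regulators (26.7%) and 15 of 25 genes listed as REST targets (60%), a list partly known for this element. Inside their introns, however, *Srrm4*, *Nova2* and *Rbfox1* held it (3 of 10 members, and 3 of the 7 that span at least 40000 bases). Of the 5929 genes of the table that span at least 40000 bases, 218 (3.68%) held it anywhere in the gene. That share is not matched for length, and a longer gene has more room for a match. *Nova2* spans 40334 bases, just over the limit, *Srrm4* 152546 and *Rbfox1* 603258. These intronic matches of the members are shown with capitals on the fixed letters of the core, read 5′ to 3′ along the strand of the match:
Srrm4, chr5:116968260-116968280, minus strand: ttCAGCACCgcGGACAGtggc
Nova2, chr7:19536944-19536964, minus strand: ttCAGCACCaaGGACAGcagc
Rbfox1, chr16:6931069-6931089, plus strand: tcCAGCACCttGGACAGaaac
Rbfox1, chr16:7202091-7202111, minus strand: ttCAGCACCgtGGACAGaaac
Such a match also lay near the start of *Rbfox3*. For comparison, the matches near the starts of 3 CELF splicing regulators and of 3 neuronal genes from the target list, picked among those lower in *Mbd3* KO (log2 fold changes from -5.14 to -2.32), are:
Celf3, chr3:94281934-94281954, plus strand: tcCAGCACCggGGACAGctcc
Celf5, chr10:80940483-80940503, minus strand: ttCAGCACCgcGGACAGcggc
Celf6, chr9:59426242-59426262, plus strand: ttCAGCACCgcGGACAGcggc
Stmn2, chr3:8508230-8508250, plus strand: ttCAGCACCacGGACAGcgct
Chrnb2, chr3:89568376-89568396, minus strand: ttCAGCACCacGGACAGcgct
Scn2a, chr2:65458021-65458041, plus strand: ttCAGCACCacGGACAGcacc
The match in *Srrm4* lies 73555 bases and that in *Nova2* 26257 bases downstream of the gene start. The 4 genes of the target list that were not called in *Mbd3* KO (*Chrm4*, *Calb1*, *Grin1* and *Chga*) also held a match near their start. A match is a description and not evidence that REST bound there in these cells.

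Promoter sequences (RefSeq, GRCm38.p6, another build than that of the counts) were at hand for *Ptbp1*, *Ptbp2*, *Srrm4*, *Nova1*, *Nova2* and *Rbfox1*, and none was found under the names of *Rest*, *Rbfox2*, *Esrp1* and *Esrp2*. The ratio of observed to expected CpG in the 300 bases around the start, which is low in promoters depleted of CpG, was 0.902 for *Ptbp1*, 0.861 for *Ptbp2*, 0.807 for *Srrm4*, 0.764 for *Nova1* and 0.64 for *Nova2*. It was 0.144 and 0.38 for the 2 promoters of *Rbfox1*. Over all 32851 promoters the median was 0.384, and 35.8% exceeded 0.6. *Ptbp2* and *Rbfox1*, which both fell in *Mbd3* KO, thus differ in the CpG content of the promoters listed for them. The second promoter of *Rbfox1*, with 7 CpGs, is near the median. The counted *Rbfox1* gene starts at 6809315 in mm9, and its first listed promoter at 5884543 in the other build. Which of its 2 promoters was used in these cells was not tested. With each CpG in capitals, the promoter of *Ptbp2* (36 CpGs) and the first of *Rbfox1* (3 CpGs) read:
Ptbp2, chr3:119783339-119783638, minus strand: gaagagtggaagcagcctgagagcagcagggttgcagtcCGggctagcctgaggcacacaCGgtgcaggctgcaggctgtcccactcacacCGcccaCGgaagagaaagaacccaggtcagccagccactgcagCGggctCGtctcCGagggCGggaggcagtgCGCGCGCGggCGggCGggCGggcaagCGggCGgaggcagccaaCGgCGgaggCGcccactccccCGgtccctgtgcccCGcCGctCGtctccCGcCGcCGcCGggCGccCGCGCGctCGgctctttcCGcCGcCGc
Rbfox1, chr16:5884543-5884842, plus strand: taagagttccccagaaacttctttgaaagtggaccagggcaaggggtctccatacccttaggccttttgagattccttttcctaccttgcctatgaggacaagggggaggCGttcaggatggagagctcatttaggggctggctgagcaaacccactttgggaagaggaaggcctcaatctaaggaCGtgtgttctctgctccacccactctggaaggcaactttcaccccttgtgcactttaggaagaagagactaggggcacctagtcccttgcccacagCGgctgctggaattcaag

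The first comparison asked how loss of MBD3 changed these regulators in cells driven towards the neural lineage. In *Mbd3* KO against WT, the 5 neuronal regulators *Ptbp2*, *Srrm4*, *Nova1*, *Nova2* and *Rbfox1* fell by 5.86-fold to 22.2-fold, *Rest* rose 2.45-fold, and *Esrp1* and *Esrp2* rose 5.02-fold and 5.68-fold. *Ptbp1* was 1.36-fold higher and *Rbfox2* 1.67-fold lower, both short of the fold change needed for a call. Calls required an adjusted p-value below 0.05 together with a log2 fold change beyond 1 in either direction. So 8 of 10 members were called, 3 higher and 5 lower, where 33.8% of all tested genes were called, 19.6% higher and 14.2% lower. The libraries of *Mbd3* KO and WT did not overlap for any of the 10, which was so for 62.2% of all genes. The plot of levels by library shows all of these values.

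**Figure D1:**
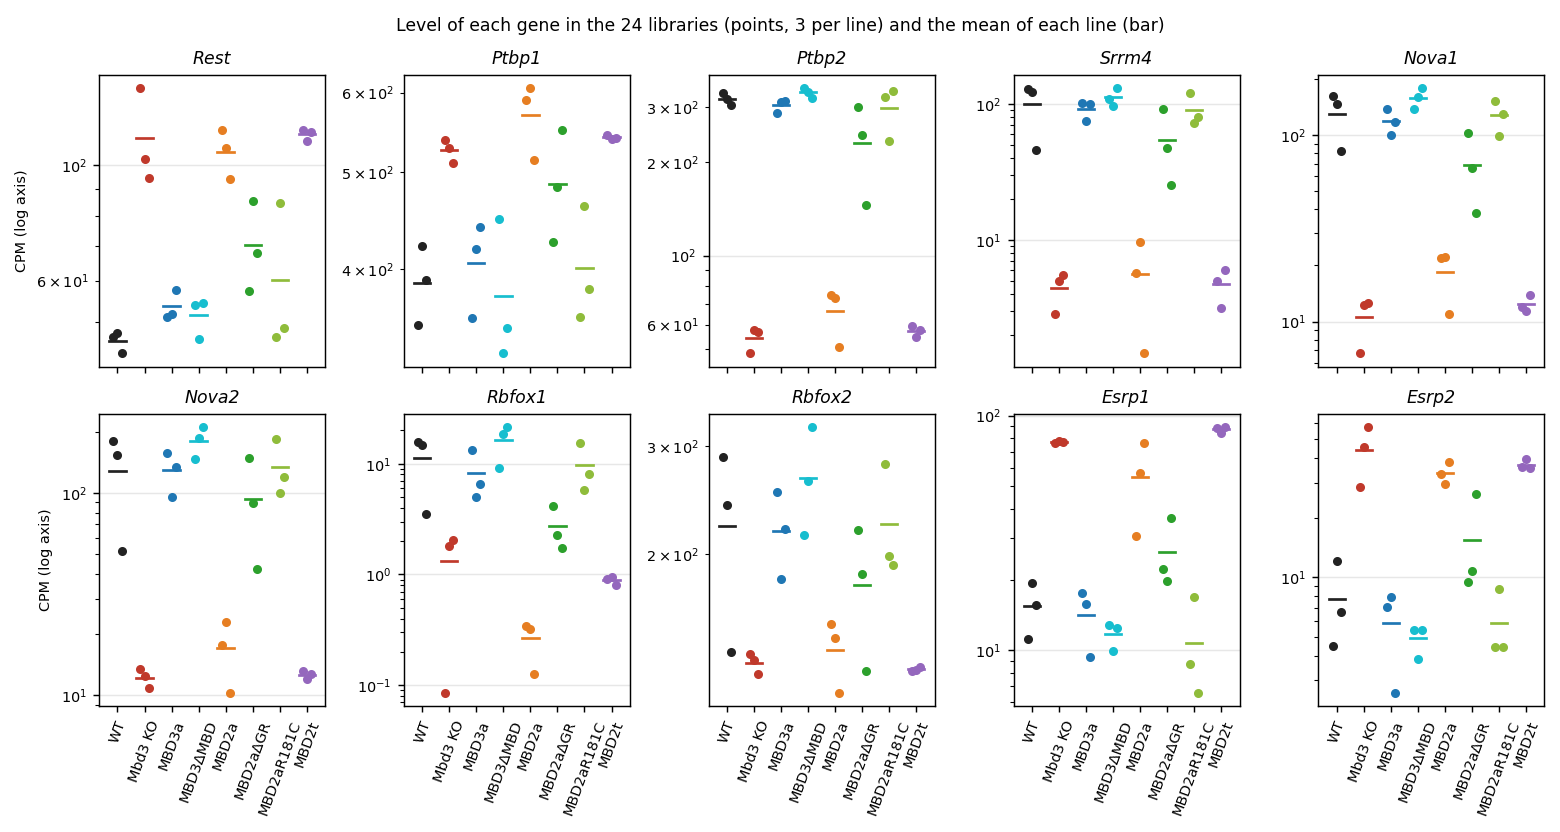
Level in CPM (log axis, own range in each panel) of the 10 genes in the 8 lines, 3 libraries per line as points and the mean of each line as a bar. For the neuronal regulators the *Mbd3* KO, MBD2a and MBD2t libraries lie low and the other lines high, and *Rest*, *Esrp1* and *Esrp2* show the opposite pattern, with MBD2aΔGR in between.

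*Rest* (chr5:77694516-77715457, plus strand, mm9) stood at 46.7, 47.6 and 43.5 CPM in WT and at 141, 103 and 94.3 CPM in *Mbd3* KO. Every *Mbd3* KO library was above every WT library, and the spread was wider in *Mbd3* KO. The log2 fold change was 1.29 ± 0.19 (SE, n = 3 libraries per line, edgeR, adjusted p = 1.61e-05). The *Mbd3* KO library with the highest *Rest*, s04, was also the highest of its line in summed pluripotency markers (1126 CPM against 411 and 647 CPM), and the part of these in its *Rest* level was not tested.

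*Ptbp1* (chr10:79317172-79327516, plus strand) encodes the polypyrimidine tract binding protein of non-neuronal cells. Its libraries held 352, 422 and 390 CPM in WT and 538, 528 and 510 CPM in *Mbd3* KO. This shift of 0.44 ± 0.13 on the log2 scale (adjusted p = 0.00622) was small beside that of its neuronal paralog. *Ptbp2* (chr3:119421660-119486306, minus strand) stood at 333, 319 and 304 CPM in WT and at 48.5, 57.7 and 56.7 CPM in *Mbd3* KO. The replicates of each line lay close together and the gap between lines was more than 5-fold (log2 fold change -2.55 ± 0.20, adjusted p = 2.87e-08). *Ptbp1* shares exonic bases with genes on the opposite strand, and since the strand setting of the counting is not given in the sources used here, its level is uncertain to that extent. The same holds for *Srrm4*, *Nova2*, *Esrp1* and *Esrp2*.

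Within a library the ratio of *Ptbp2* to *Ptbp1* counts needs no scaling between libraries. In WT its log2 value was -0.28 ± 0.177 (SD, n = 3) and in *Mbd3* KO -3.28 ± 0.168. Per kilobase of exon, *Ptbp2* was above *Ptbp1* in WT (94.7 ± 4.38 against 81.7 ± 7.4 CPM per kb) and far below it in *Mbd3* KO (16.2 ± 1.5 against 111 ± 2.99 CPM per kb). MBD3a and MBD3ΔMBD had log2 ratios of -0.41 ± 0.0881 and -0.15 ± 0.206, and MBD2aR181C had -0.44 ± 0.475. MBD2a and MBD2t had -3.12 ± 0.189 and -3.24 ± 0.0524. MBD2aΔGR lay between these sets by its mean, with -0.50, -0.99 and -1.92 in its 3 libraries. These were below every WT library and above every *Mbd3* KO library. They overlapped those of MBD2aR181C, whose library s20 had -0.99. Each of the 8 comparisons with WT or *Mbd3* KO in which the libraries did not overlap had an exact two-sided permutation p of 0.1, the smallest that 3 against 3 libraries can give (adjusted over 13 tests, p = 0.1625).

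**Figure D2:**
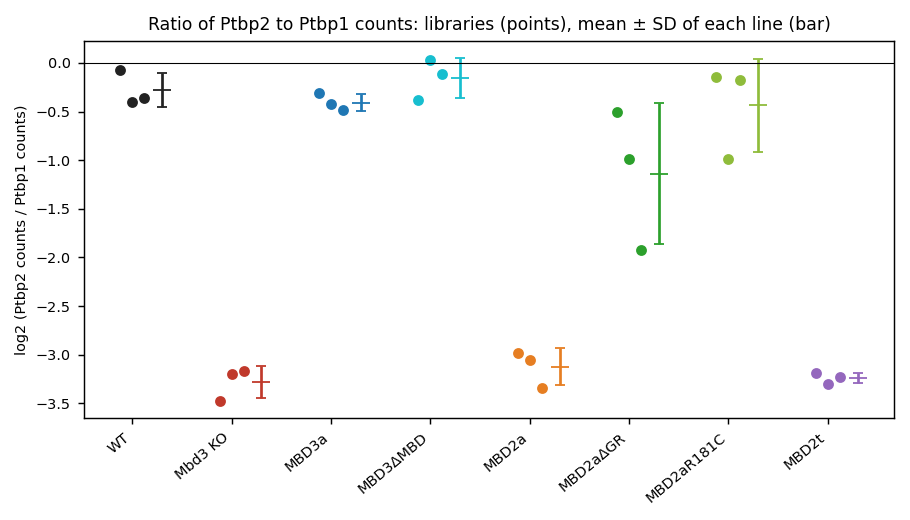
Log2 ratio of *Ptbp2* to *Ptbp1* counts in each of the 24 libraries (points) with the mean ± SD of each line (bar and whiskers). The *Mbd3* KO, MBD2a and MBD2t libraries lie at -2.98 or lower and those of WT, MBD3a and MBD3ΔMBD at -0.49 or higher. MBD2aΔGR spreads from -0.50 to -1.92 and MBD2aR181C from -0.15 to -0.99.

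*Srrm4* (chr5:116889281-117041826, minus strand), the microexon splicing factor, had the largest fall. It was at 130, 122 and 45.6 CPM in WT and at 2.86, 4.96 and 5.50 CPM in *Mbd3* KO (22.2-fold lower, log2 fold change -4.47 ± 0.56, adjusted p = 2.93e-06). Its lowest WT value came from library s03, yet this was still well above every *Mbd3* KO library.

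*Nova1* and *Nova2*, which encode KH-domain proteins that bind YCAY clusters in neuronal transcripts, moved alike. *Nova1* (chr12:47795504-47919762, minus strand) was at 162, 148 and 82.0 CPM in WT and at 6.75, 12.2 and 12.6 CPM in *Mbd3* KO. *Nova2* (chr7:19510698-19551031, plus strand) was at 180, 155 and 52.0 CPM in WT and at 13.5, 12.5 and 10.8 CPM in *Mbd3* KO. Neither gene overlapped between the lines. Their log2 fold changes were -3.63 ± 0.36 (adjusted p = 2.89e-07) and -3.40 ± 0.45 (adjusted p = 5.49e-06).

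The RBFOX proteins bind GCAUG, and their genes did not move to the same extent. *Rbfox1* (chr16:6809315-7412572, plus strand), the paralog restricted to neurons and muscle, was the least abundant neuronal regulator, with 15.8, 14.8 and 3.53 CPM in WT and 0.0858, 1.82 and 2.04 CPM in *Mbd3* KO. The lowest *Mbd3* KO value, in library s04, rests on 3 reads, and the lowest WT library was again s03. The fall (log2 fold change -3.07 ± 0.64, adjusted p = 0.000462) had the widest error of the 10. *Rbfox2* (chr15:76909420-77137483, minus strand), present in many tissues, was at 288, 240 and 139 CPM in WT and at 137, 134 and 128 CPM in *Mbd3* KO. The lines were separated only by the narrow gap between WT library s03 and the highest *Mbd3* KO library (log2 fold change -0.74 ± 0.23, adjusted p = 0.00894, not called).

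WT library s03 was the lowest of its line in *Ptbp2*, *Srrm4*, *Nova1*, *Nova2*, *Rbfox1* and *Rbfox2*. Its summed neuron markers were also lowest, at 1362 CPM against 2876 and 3408 CPM in the other WT libraries, and its summed pluripotency markers highest, at 200 CPM against 46.1 and 65.0 CPM. The part of these marker levels in its splicing regulators was not tested. No call of the 10 genes in *Mbd3* KO against WT was lost or gained when this or any other library of these lines was left out.

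*Esrp1* and *Esrp2* encode the epithelial splicing regulatory proteins, best known for the epithelial exon of *Fgfr2*. *Esrp1* (chr4:11259080-11313930, minus strand) was at 11.2, 19.3 and 15.6 CPM in WT and at 76.2, 78.2 and 77.1 CPM in *Mbd3* KO, with little spread in the knock-out (log2 fold change 2.33 ± 0.34, adjusted p = 1.52e-05). *Esrp2* (chr8:108654219-108660874, minus strand) was at 4.48, 12.1 and 6.65 CPM in WT and at 28.5, 45.8 and 57.5 CPM in *Mbd3* KO (log2 fold change 2.51 ± 0.43, adjusted p = 6.34e-05). Both genes were higher in every *Mbd3* KO library than in any WT library.

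Per kilobase of exon, the order of the genes themselves differed between the lines. In WT it ran from *Ptbp2* (94.7 CPM per kb) and *Ptbp1* (81.7) through *Rbfox2* (29.98), *Nova1* (18.7), *Nova2* (14.3) and *Srrm4* (12.6) down to *Rest* (6.33), *Rbfox1* (2.69), *Esrp1* (2.44) and *Esrp2* (1.78), all in CPM per kb. In *Mbd3* KO *Ptbp1* led (111 CPM per kb), followed by *Rbfox2* (17.9), *Ptbp2* (16.2), *Rest* (15.5), *Esrp1* (12.2) and *Esrp2* (10.1), with *Nova1* (1.5), *Nova2* (1.36), *Srrm4* (0.562) and *Rbfox1* (0.31) last. *Nova1*, *Nova2* and *Srrm4*, above *Rest* and the ESRP genes in WT, were below them in *Mbd3* KO.

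The next comparisons asked which constructs bring these genes back to WT levels. By edgeR, none of the 10 genes was called in MBD3a against WT (0% of all genes were called) or in MBD3ΔMBD against WT (0.0181% of all genes). None had an unadjusted p below 0.05 in either comparison, and DESeq2 called none. Against *Mbd3* KO, MBD3a had 8 of 10 members called (32.4% of all genes), with *Ptbp2*, *Srrm4*, *Nova1*, *Nova2* and *Rbfox1* higher and *Rest*, *Esrp1* and *Esrp2* lower. MBD3ΔMBD had 9 called against *Mbd3* KO (35.9% of all genes), the same 8 and *Rbfox2*, whose log2 fold change of 1.00 ± 0.23 (adjusted p = 0.000887) lay at the threshold and fell below it under most other settings and without KO library s05 or s06 or MBD3ΔMBD library s11 or s12 (lowest value 0.80). *Rest* also dropped under the fold change threshold without KO library s04, to -0.88 (adjusted p = 0.00117) in MBD3a and -0.94 (adjusted p = 0.000543) in MBD3ΔMBD. The 2 MBD3 lines had no member called against each other by edgeR (0% of all genes), none at an unadjusted p below 0.05 and none by DESeq2, and their largest difference was in *Rbfox1* (log2 difference of MBD3ΔMBD minus MBD3a 0.995 ± 0.55, adjusted p = 0.989).

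In the MBD3a libraries *Srrm4* stood at 102, 74.8 and 101 CPM, and in those of MBD3ΔMBD at 109, 97.3 and 132 CPM, all inside or just above the range of WT. *Rest* was at 51.1, 51.9 and 57.6 CPM in MBD3a and at 53.8, 46.4 and 54.2 CPM in MBD3ΔMBD. The MBD3a libraries lay slightly above those of WT without overlap, by 0.22 ± 0.19 on the log2 scale, which did not pass the test (adjusted p = 1, 5.18% of all genes did not overlap in this comparison). *Esrp1* was at 17.5, 15.7 and 9.34 CPM in MBD3a, again within the values of WT or just below them.

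**Figure D3:**
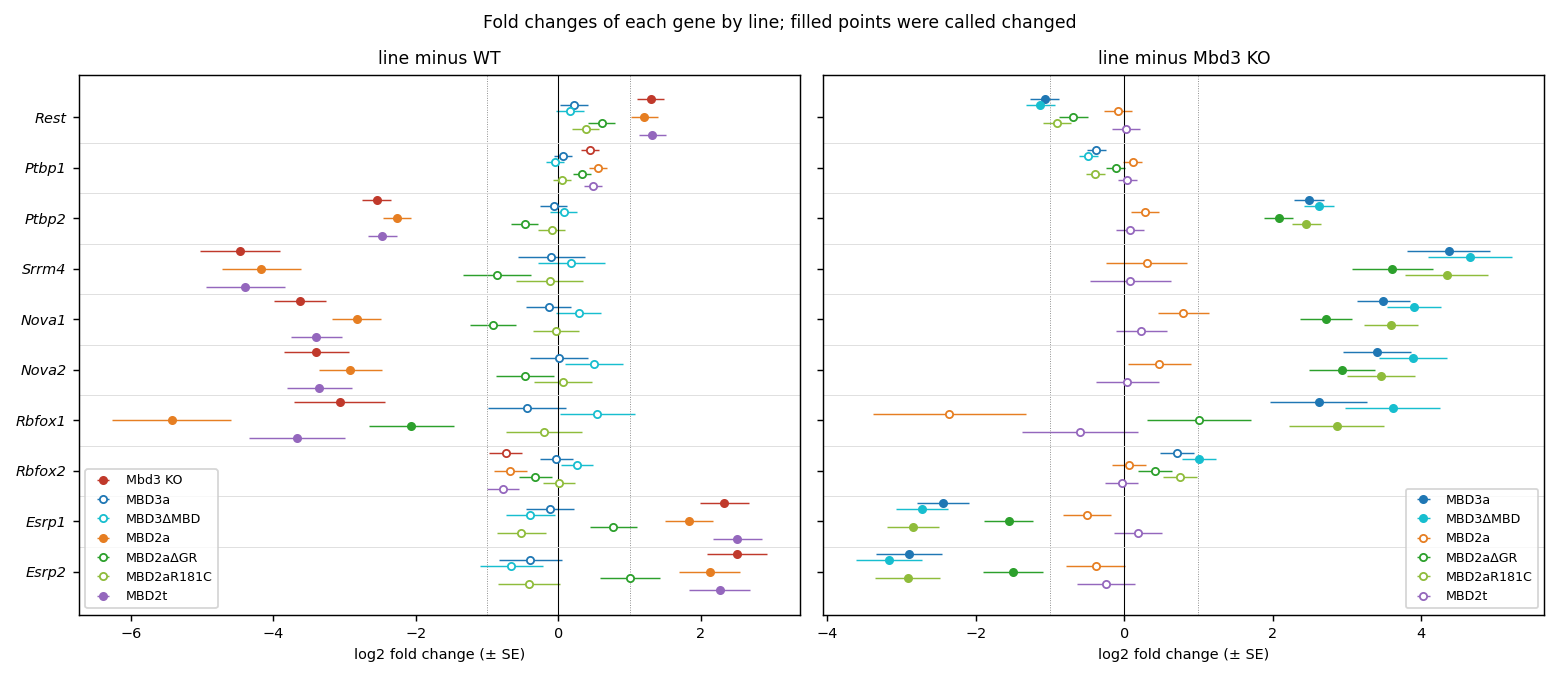
Log2 fold changes (x axis, ± SE) of the 10 genes (rows) in each line against WT (left) and against *Mbd3* KO (right), coloured by line, with filled points called changed and dotted lines at the fold change threshold. Against WT, *Mbd3* KO, MBD2a and MBD2t have filled points for 8 genes each and MBD2aΔGR for *Rbfox1* alone.

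MBD2a gave levels near those of *Mbd3* KO. Against WT, 8 of 10 members were called (30.6% of all genes), 3 higher (16.9%) and 5 lower (13.7%). Against *Mbd3* KO none was called by edgeR (5.25% of all genes), 2 had an unadjusted p below 0.05 (*Nova1* and *Rbfox1*), and DESeq2 called *Rbfox1*. *Ptbp2* was at 74.9, 72.9 and 50.7 CPM in MBD2a (4.81-fold lower than WT, log2 fold change -2.27 ± 0.20, adjusted p = 3.15e-07). *Srrm4* was at 5.67, 9.55 and 1.45 CPM (18-fold lower than WT, adjusted p = 9.22e-06). Both ranges lay far under WT and reached beyond that of *Mbd3* KO on both sides or, for *Ptbp2*, above it.

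*Rest* in MBD2a was at 117, 108 and 93.9 CPM (2.31-fold higher than WT, adjusted p = 4.9e-05). *Esrp1* was at 30.6, 56.8 and 76.7 CPM (3.56-fold higher than WT, adjusted p = 0.000205), spread more widely than in *Mbd3* KO, where it was uniform. *Rbfox1* had its lowest mean of all lines here, at 0.345, 0.324 and 0.127 CPM, values that rest on 12, 11 and 5 reads. Its log2 difference from *Mbd3* KO of -2.36 ± 1.03 did not pass the test (adjusted p = 0.174) with edgeR and passed it with DESeq2 (adjusted p = 0.0204).

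MBD2t, the isoform from a single clone, had 8 of 10 members called against WT (33.4% of all genes), 3 higher (18.2%) and 5 lower (15.1%). Against *Mbd3* KO none was called by edgeR (0.0241% of all genes), none had an unadjusted p below 0.05, and DESeq2 called none. Its values were tight, as repeats of 1 clone, with *Rest* at 117, 111 and 116 CPM, *Ptbp2* at 59.5, 55.0 and 57.8 CPM, and *Esrp1* at 89.0, 84.0 and 89.4 CPM. The genes called against WT were those called in *Mbd3* KO and in MBD2a, and these 3 comparisons share their WT libraries. Without WT library s03, *Rbfox2* was called as well (log2 fold change -1.03, adjusted p = 0.000356).

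MBD2aR181C resembled WT in these genes, with none of 10 called by edgeR (0.0181% of all genes), none at an unadjusted p below 0.05 and none by DESeq2. Against *Mbd3* KO, 7 were called (31.1% of all genes). *Ptbp2* was at 323, 234 and 338 CPM (5.49-fold above *Mbd3* KO, adjusted p = 4.2e-08) and *Srrm4* at 120, 72.7 and 80.1 CPM (20.4-fold above, adjusted p = 4.22e-06). Its *Rest* level was uneven, at 46.7, 84.7 and 48.7 CPM, and the high library, s20, was also the lowest of its line in *Ptbp2*, *Srrm4*, *Nova1*, *Nova2* and *Rbfox1* and the highest in *Ptbp1* and both ESRP genes. Summed pluripotency markers in s20 were 386 CPM against 48.9 and 153 CPM in the other MBD2aR181C libraries, and their part was not tested. *Rest* in MBD2aR181C against *Mbd3* KO was -0.91 ± 0.19 on the log2 scale (adjusted p = 0.000523, not called by the fold change), and -1.26 (adjusted p = 6.74e-06, called) without s20. Leaving out KO library s06 also gave a call (-1.04, adjusted p = 0.000428).

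MBD2aΔGR took a middle place by its mean levels. The paper's own comparison of this line with WT found no changed gene. Against WT only *Rbfox1* was called (1 of 10, with 5.16% of all genes called, 2.69% higher and 2.47% lower), at 4.18, 2.26 and 1.75 CPM (log2 fold change -2.06 ± 0.60, adjusted p = 0.041), and its highest library lay above the lowest of WT. At an unadjusted p below 0.05 there were 7 of 10, all but *Srrm4*, *Nova2* and *Rbfox2*. The share of all genes at that p is not given here, so this count is not read as particular to the members. The call of *Rbfox1* was lost without WT library s01 (adjusted p = 0.154) or s02 (0.119), without MBD2aΔGR library s17 (0.104) or s18 (0.233), and in fits of other sets of lines. Without WT library s03, *Nova1* was called besides (-1.16, adjusted p = 0.0379), and without MBD2aΔGR library s16 both *Nova1* (-1.35, adjusted p = 0.0119) and *Srrm4* (-1.495, adjusted p = 0.0453). Against *Mbd3* KO, 6 of 10 were called (25.2% of all genes), *Ptbp2*, *Srrm4*, *Nova1* and *Nova2* higher and *Esrp1* and *Esrp2* lower.

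The MBD2aΔGR clones differed among themselves more than those of most lines. *Ptbp2* was at 301, 244 and 145 CPM, *Srrm4* at 91.4, 47.1 and 25.3 CPM, *Nova1* at 103, 67.0 and 38.2 CPM and *Nova2* at 149, 89.4 and 41.9 CPM, in each case in libraries s16, s17 and s18. *Esrp1* was at 22.3, 19.8 and 36.7 CPM and *Esrp2* at 9.49, 10.7 and 26.2 CPM in the same libraries. Library s18 was thus the lowest for each neuronal regulator and the highest for both epithelial ones, while s17 was the highest for *Rest* (57.3, 85.3 and 67.7 CPM). In s18 the summed primitive and visceral endoderm markers were 1333 CPM, against 145 and 119 CPM in s16 and s17 and 72.3 to 89.4 CPM in WT, and the summed epithelial genes were 1690 CPM against 602 and 713 CPM. *Mbd2* reads were also highest in s18, at 700 CPM against 280 and 451 CPM. The part of these in the splicing regulators was not tested. Without s18 no member was called against WT.

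The MBD2a line was compared directly with the lines lacking the GR stretch or carrying the point mutation. MBD2a against MBD2aΔGR had 7 members called (18.6% of all genes). *Ptbp2* was 3.47-fold lower in MBD2a (adjusted p = 7.43e-06), *Srrm4* 9.91-fold lower (adjusted p = 0.000188), and *Esrp1* and *Esrp2* 2.08-fold and 2.17-fold higher (adjusted p = 0.0186 and 0.0393). *Esrp1* overlapped between the lines. Both ESRP calls were lost without MBD2a library s15 or MBD2aΔGR library s16 or s17 (log2 fold changes 0.74 to 1.03), and that of *Esrp2* also without MBD2a library s13 (1.14, adjusted p = 0.0626). The call of *Rbfox1* (-3.37, adjusted p = 0.0102) was lost without s15 (adjusted p = 0.0511) or s16 (adjusted p = 0.0616), so that 4 members stayed called. MBD2a against MBD2aR181C also had 7 members called (27.3% of all genes), with *Srrm4* 16.5-fold lower (adjusted p = 1.55e-05) and *Esrp1* 5.11-fold higher (adjusted p = 3.16e-05) in MBD2a. *Rest* was 1.77-fold higher (adjusted p = 0.00159, not called) and was called without s20 (log2 fold change 1.17, adjusted p = 2e-05). Both comparisons set lines apart that also differed in *Mbd2* reads, which were 5.95-fold lower in MBD2a than in MBD2aΔGR (adjusted p = 1.66e-06) and 3.47-fold lower than in MBD2aR181C (adjusted p = 5.01e-06). These are reads and not protein, which the paper reports at equal levels for MBD2a and MBD2aΔGR in ESCs by immunoblot. The part of the read level in these differences was not tested.

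MBD2aΔGR against MBD2aR181C had 1 member called (2.35% of all genes), *Esrp1*, 2.45-fold higher in MBD2aΔGR (log2 fold change 1.29 ± 0.34, adjusted p = 0.0475). It was no longer called without s18 (log2 fold change 0.97, adjusted p = 0.367) or without MBD2aR181C library s19 (adjusted p = 0.22) or s21 (adjusted p = 0.2). Without s16 there were 4 calls and without s20 there were 2. *Esrp2* was 2.67-fold higher with adjusted p = 0.0739, and *Rbfox1* 3.62-fold lower with adjusted p = 0.0926, and for both the libraries of the lines did not overlap. The 7 other members had log2 differences from -0.88 to 0.28.

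Ranking the 8 lines by mean CPM showed where the levels of each gene broke. For *Rest*, *Ptbp2*, *Srrm4*, *Nova1*, *Nova2*, *Esrp1* and *Esrp2* the pair of neighbours with an adjusted p below 0.05 was MBD2a and MBD2aΔGR. No other neighbouring pair had one, here without a fold change threshold. The share of all genes at that p is not given here, so this is not read as particular to the members. With only these 2 lines in the edgeR fit, the adjusted p was 0.105 for *Esrp1* and 0.101 for *Esrp2*. *Rest* ran MBD2t (115 ± 3.001 CPM), *Mbd3* KO (113 ± 24.7), MBD2a (106 ± 11.5), then MBD2aΔGR (70.1 ± 14.1), MBD2aR181C (60.02 ± 21.4), MBD3a (53.5 ± 3.56), MBD3ΔMBD (51.5 ± 4.41) and WT (45.9 ± 2.17, mean ± SD of 3 libraries in CPM). The drop from MBD2a to MBD2aΔGR had adjusted p = 0.02 at a log2 difference of 0.60, too small for a call. *Srrm4* ran the other way, from MBD3ΔMBD (113 ± 17.5 CPM) to MBD2aΔGR (54.6 ± 33.6), MBD2a (5.56 ± 4.05), MBD2t (4.69 ± 1.42) and *Mbd3* KO (4.44 ± 1.40). For *Ptbp1*, *Rbfox1* and *Rbfox2* no neighbouring pair passed the test. *Rbfox1* nevertheless had 2 steps without overlap of the libraries. The first was from MBD3a (8.30 CPM) to MBD2aΔGR (2.73 CPM, log2 difference 1.62, adjusted p = 0.119). The second was from MBD2t (0.893 CPM) to MBD2a (0.266 CPM, log2 difference 1.76, adjusted p = 0.409). Libraries also did not overlap from MBD2t to *Mbd3* KO in *Ptbp1* and *Esrp1*, and from MBD2aΔGR to WT in *Esrp1* (adjusted p = 0.148). For *Esrp1*, those of MBD2a and MBD2aΔGR overlapped. The share of all genes without overlap at these steps is not given here.

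Around the members, 15 other neural splicing regulators were followed, in a list put together with earlier results of these data known. *Elavl3*, *Elavl4* and *Rbfox3* in it are also among the neuron markers, so these lists are not independent. In *Mbd3* KO against WT 12 fell (14.2% of all genes did), 1 rose (19.6% of all genes) and 2 were not called. Their median log2 fold change was -3.10, and that of all genes was -0.03. The largest falls were in *Elavl4* (121 ± 53.2 CPM in WT and 2.16 ± 1.59 CPM in *Mbd3* KO, log2 fold change -5.79 ± 0.64), a neuronal HuD RNA-binding protein, and in *Celf3* (131 ± 60.3 to 3.68 ± 3.13 CPM, -5.14 ± 0.70). *Elavl3* fell from 273 ± 121 to 14.6 ± 5.702 CPM, and *Srrm3*, the paralog of *Srrm4*, from 25.1 ± 9.65 to 2.21 ± 0.588 CPM. *Rbfox3*, the gene of the NeuN antigen, went from 22.7 ± 10.9 to 8.51 ± 4.04 CPM, with overlapping libraries (-1.41 ± 0.50, adjusted p = 0.021). *Mbnl2* was the exception, rising from 36.5 ± 6.02 to 130 ± 16.6 CPM (log2 fold change 1.83 ± 0.27).

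MBD2a and MBD2t each had 12 of the 15 lower and 1 higher against WT. Of all genes, 13.7% were lower and 16.9% higher in MBD2a, and 15.1% and 18.2% in MBD2t. MBD3a and MBD2aR181C had none of the 15 called (0% and 0.0181% of all genes). In MBD2aΔGR 1 was called (5.16% of all genes), *Rbfox3*, with a log2 fold change of -1.97 ± 0.52 (adjusted p = 0.0283, with overlapping libraries). This count is near the share of all genes and is not read as particular to the list. The summed level of the list in *Mbd3* KO was 487 to 498 CPM, that in WT 1216 to 2100 CPM and that in MBD2aΔGR 872 to 1765 CPM, whose lowest library fell below every WT library.

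Of 8 splicing regulators of non-neural cells, 3 rose (19.6% of all genes did), 1 fell (14.2% of all genes) and 4 were not called in *Mbd3* KO, with a median of 0.10. The epithelial and endodermal regulator *Rbm47* rose from 5.30 ± 2.23 to 58 ± 15.1 CPM (log2 fold change 3.45 ± 0.68), *Mbnl3* from 8.39 ± 1.76 to 82.1 ± 12.6 CPM (3.29 ± 0.395) and the third PTB paralog, *Ptbp3*, by 1.29 ± 0.15. *Msi2*, a Musashi RNA-binding protein, fell from 225 ± 47.1 to 96.5 ± 14.4 CPM. Its level in WT shows that the name of the list does not mean absence from neural progenitor libraries. *Rbm47* was also called in MBD2aΔGR against WT (2.23 ± 0.66, adjusted p = 0.0425).

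The core splicing machinery served as a contrast. Of 31 factors, 1 was called in *Mbd3* KO, *Hnrnpa1*, which fell from 1491 ± 91.2 to 726 ± 69.96 CPM (log2 fold change -1.04 ± 0.13). It was not called under other scalings or without KO library s06. The median of the list was -0.36, and without the fold change threshold 22 of the 31 had an adjusted p under 0.05, all lower, where 30.8% of all genes were lower by that rule. Scaled by library size alone, 16 were lower and 1 higher and the median was -0.22, against 0.11 for all genes. This shift was small beside that of the neuronal regulators.

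**Figure D4:**
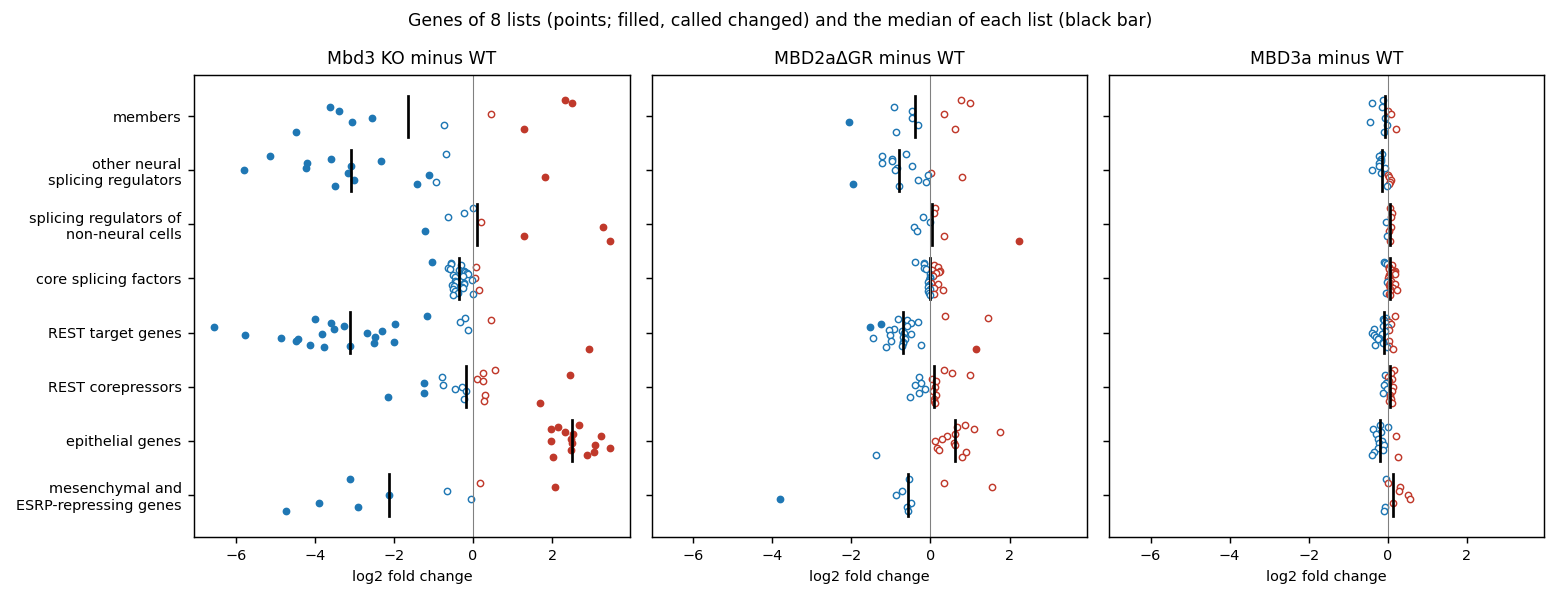
Log2 fold changes (x axis, shared scale) of the genes of 8 lists in *Mbd3* KO, MBD2aΔGR and MBD3a against WT, 1 point per gene (red above 0, blue below), filled where called, with the median of each list as a black bar. In *Mbd3* KO the medians of the other neural splicing regulators (-3.10) and REST target genes (-3.11) lie left of 0 and that of the epithelial genes (2.50) right of it, and in MBD3a all points lie near 0.

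Genes known as REST targets were followed beside *Rest*, whose product represses them. Of 25, 20 fell in *Mbd3* KO (14.2% of all genes did) and 1 rose (19.6% of all genes). The 4 others were not called (*Chrm4*, *Calb1*, *Grin1* and *Chga*), and the median log2 fold change was -3.11. *Glra1*, a glycine receptor subunit, went from 13.04 ± 6.03 to 0.135 ± 0.1198 CPM, and *Scg3*, a secretogranin, from 50.6 ± 19.04 to 0.899 ± 0.55 CPM. *Vgf*, a neuropeptide precursor gene, went the other way, from 1.44 ± 0.502 to 10.9 ± 1.64 CPM (2.92 ± 0.21, adjusted p = 9.17e-09). Most of the list are neuronal genes, and the neuron markers fell in the same comparison. The 2 lists share genes, among them *Tubb3*, *Stmn2* and *Snap25*, whose fall is not a separate observation. Repression by REST and fewer neuronal cells cannot be told apart.

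Elsewhere, MBD2a and MBD2t had 20 of 25 lower than WT (13.7% and 15.1% of all genes). MBD3a and MBD2aR181C had none called (0% and 0.0181% of all genes). In MBD2aΔGR the *Rest* level was 1.53-fold that of WT (adjusted p = 0.0524). This line had *Glra1* (-1.54 ± 0.40, adjusted p = 0.026, with overlapping libraries) and *Cplx1* (-1.25 ± 0.32, adjusted p = 0.0239) lower (2.47% of all genes). It had *Vgf* (1.16 ± 0.22, adjusted p = 0.00723) higher (2.69% of all genes). Summed, the targets reached 191 to 291 CPM in *Mbd3* KO libraries, 1276 to 2516 CPM in those of WT and 823 to 1757 CPM in those of MBD2aΔGR.

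Of 17 genes for REST corepressors, 2 rose and 3 fell in *Mbd3* KO and 12 were not called, a share of 29.4% called that is near the 33.8% of all genes. *Rcor2*, the CoREST paralog prominent in ESCs and neural progenitors, fell from 386 ± 61.03 to 86.4 ± 2.998 CPM (log2 fold change -2.16 ± 0.20), while *Rcor1* stood at 81.2 ± 16.9 and 99.1 ± 11.03 CPM (0.29 ± 0.13, adjusted p = 0.0567). *Phf21a*, a reader of unmethylated histone H3, went from 132 ± 40.1 to 55.5 ± 7.61 CPM, and *Hdac2* fell by 1.23 ± 0.13 on the log2 scale. *Sin3b* rose from 156 ± 17.7 to 500 ± 65.4 CPM (1.68 ± 0.15) and *Ctdspl*, a small phosphatase that acts with REST, from 13.4 ± 2.34 to 73.6 ± 8.23 CPM (2.46 ± 0.32). The median of the list was -0.18.

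The ESRP genes were set beside epithelial and mesenchymal genes. All 15 epithelial genes rose in *Mbd3* KO (19.6% of all genes did), with a median of 2.50. *Grhl1* went from 1.77 ± 0.606 to 16.6 ± 1.46 CPM and *Krt8* from 112 ± 39.8 to 955 ± 179 CPM. Of 9 mesenchymal and ESRP-repressing genes 5 fell (14.2% of all genes did), and the ZEB genes, whose products repress *Esrp1*, were among them. *Zeb2* fell from 106 ± 39.4 to 3.96 ± 1.77 CPM (-4.73 ± 0.53) and *Zeb1* from 106 ± 36.3 to 14.3 ± 1.72 CPM (-2.90 ± 0.43). *Vim* fell from 1054 ± 108 to 70.9 ± 42.6 CPM and *Snai1* rose from 6.91 ± 1.35 to 28.9 ± 3.81 CPM. In MBD2aΔGR *Zeb1* and *Zeb2* stood at 70.7 ± 28.98 and 71.2 ± 37.96 CPM and were not called against WT.

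Over the 24 libraries, the genes whose log2 CPM followed each member most closely were also looked up. These correlations are descriptions, since the libraries fall into lines with high and low levels. *Srrm4* was most like *Phf21b*, *Brsk2* and *Elavl3* (Pearson r 0.996, 0.995 and 0.994), *Nova1* most like *Chn1* (0.997), *Cntn2* (0.996) and *Lrp3* (0.995), and *Ptbp2* most like *Boc* (0.995), *Msx3* (0.995) and *Dtx4* (0.994). *Rbfox1* was most like *Esrrg* (0.983), *Nsg1* (0.979) and *Cdh13* (0.979), and *Rbfox2* most like 4930402H24Rik (0.987), *Agap1* (0.986) and *Kidins220* (0.979). *Esrp1* had *Epcam* (0.990), *Bspry* (0.984) and *Marveld2* (0.979) beside it, and *Rest* had *Supt5* (0.983), *Wasf2* (0.977) and *Kank2* (0.974).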

How the data were processed

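The values deposited by the authors are whole-number counts of reads per gene, not normalized. Per the paper's methods and the labels, poly(A) libraries from a directional kit were trimmed with Trim Galore, aligned with STAR to NCBIM37 (mm9) and counted with QuasR. The strand setting is not given in the sources used here. Columns were assigned to lines by their names, which carry a library number (s01 to s24) and no replicate number. The columns of the point mutant carry the name MBD2aR64C, the labels R181C, and the paper's text yet another residue number. They were taken as the same line because it is the only point mutant of MBD2a among the RNA-seq lines, and this identity was not tested.

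Genes passing filterByExpr were scaled by TMM and entered 1 quasi-likelihood fit (edgeR 4.0.16, R 4.3.3) of all 24 libraries with the line as factor, with Benjamini-Hochberg adjustment over 16582 genes. SE was obtained as log2 fold change over the root of F. CPM used TMM-scaled library sizes, log2 CPM a prior count of 1, and the *Ptbp2* to *Ptbp1* ratio 0.5 added counts. The procedure was tested on simulated counts with the same dispersion for every gene and no library set apart from its line. That test does not cover libraries such as s03, s18 and s20. Reads carry no molecular identifiers, so floors of 3 counts cover counting error only.

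The members, lists and tests were chosen with earlier results of these data known. From each list, at most 2 called rises and 2 called falls in *Mbd3* KO were named, those with the greatest change among genes whose libraries did not overlap and whose mean log2 CPM reached 1. *Zeb1*, *Zeb2*, *Rcor1*, *Rcor2*, *Srrm3*, *Rbfox3*, *Elavl3* and *Elavl4* were always named, and so were the 3 genes most like each of 7 members. *Ptbp3*, *Hdac2*, *Cplx1*, *Gata4*, *Sox17*, *Prl3d1*, uncalled REST targets and genes with printed matches were named after their values were seen. Alternatives were other sets of lines, scalings, filters, tests (DESeq2 1.42.0, legacy quasi-likelihood, glmTreat) and thresholds, and each library left out. ChIP-seq samples were not analysed here.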

Additional observations from a re-analysis of the deposited data

How the results depend on the processing

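No paired analysis was possible because the columns carry no replicate numbers. Of 90 values of single members in *Mbd3* KO against WT under other settings, 87 kept direction and call. The exceptions were *Ptbp1* and *Rbfox2*, called without the fold change threshold, and *Rest*, not called by glmTreat at a log2 fold change of 1 (adjusted p = 0.0877). Over all comparisons 1459 of 1510 such values kept their call, 31 lost and 20 gained it, and no direction reversed.

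The following counts of calls moved by over 1.5 times. In *Mbd3* KO against WT, the core splicing factors had 22 calls without the fold change threshold and 0 under glmTreat, RLE, library size only and DESeq2 (edgeR scalings keep 16 to 22 of them at an adjusted p below 0.05 and lower). The REST corepressors had 11 without the threshold and 3 under glmTreat. The endoderm markers had 0 under glmTreat and 2 with only the 2 lines in the fit or DESeq2, and the mesenchyme markers 1 under glmTreat. For the members, MBD2aΔGR against WT had 0 under glmTreat, with only the 2 lines, without MBD2t and by the legacy test. MBD2a against MBD2aΔGR had 4 under glmTreat, and MBD2a against *Mbd3* KO had 1 by DESeq2. MBD2aΔGR against MBD2aR181C had 0 under glmTreat, with only the 2 lines, without MBD2t, with library size only, without the filter and by the legacy test, and 2 by DESeq2. The order of lines for *Esrp2* kept 6 of 8 positions with library size only.

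Leaving out each library in turn gave 0 to 1 calls for the core splicing factors, 0 to 1 for the endoderm markers (0 without KO library s05), 0 to 3 members for MBD2aΔGR against WT, 4 to 7 for MBD2a against MBD2aΔGR and 0 to 4 for MBD2aΔGR against MBD2aR181C. The cause of these changes was not tested. The low counts of *Rbfox1* in MBD2a and KO library s04 limit its fold changes.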

Other observations

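Among cell type markers whose mean log2 CPM reached 1, these changes were the largest of each list in *Mbd3* KO against WT. Among neural progenitor markers *Neurod4* fell by 7.56 ± 0.64 and *Msx3* by 7.44 ± 0.58 on the log2 scale, and among neuron markers *Elavl4* fell by 5.79 ± 0.64 and *Neurod1* by 4.97 ± 0.49. The pluripotency genes *Zfp42* and *Tfcp2l1* rose by 3.51 ± 0.95 and 3.19 ± 0.57, and the trophoblast genes *Hand1* and *Krt7* by 5.28 ± 0.80 and 4.42 ± 0.69. *Prl3d1*, a trophoblast giant cell gene under that level (mean log2 CPM -0.58), rose by 7 ± 0.51. *Foxa2* rose by 1.46 ± 0.55 among endoderm markers, a call lost without KO library s05. *Tagln* rose by 1.58 ± 0.34 and *Col3a1* and *Acta2* fell by 3.34 ± 0.89 and 1.41 ± 0.55 among mesenchyme and smooth muscle markers.

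Against WT, MBD2aΔGR had 7 of 8 primitive and visceral endoderm markers called higher (2.69% of all genes), *Gata4* by 3.98 ± 0.99 and *Sox17* by 1.74 ± 0.46 among them. The libraries overlapped for *Dab2* and *Afp*. *Gata4* ranged from 12.8 to 291 CPM in the 3 MBD2aΔGR libraries and from 4.89 to 8.21 CPM in WT, and the summed level of these markers was highest in s18. In MBD2a, *Gata6*, *Gata4*, *Dab2*, *Cubn* and *Foxa2* were also called higher than WT (16.9% of all genes). Between MBD2a and MBD2aΔGR only *Sox17* of these markers was called (18.6% of all genes). Of the mesenchyme and smooth muscle markers 4 of 6 were called lower in MBD2aΔGR than in WT (2.47% of all genes).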
